A study of Mus musculus with 56 samples.

Results

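The cornified envelope genes described here were 9 genes that encode the structural proteins of the envelope and the enzymes that join them: Lor, Ivl, Sprr1a, Sprr1b, Sprr3, Tgm1, Tgm3, Evpl and Ppl. They were found on the array by matching the RefSeq accession of each probe to a gene symbol, which gave 11 probes of 55681, for 9 of the 20018 genes that could be named. Ivl and Tgm3 had 2 probes each, and the brighter probe of a gene in a tissue, by mean sample signal, was used for that tissue, and for a comparison of 2 tissues the brighter over the arrays of both. RNA came from adult male MutaMouse animals, a transgenic strain that carries a lacZ reporter for scoring mutations, about 14 weeks old. They had been gavaged on 28 days with olive oil, which all groups received, either alone (D0) or with the polycyclic aromatic hydrocarbon chrysene. The daily dose of chrysene in mg/kg body weight was 17.5 in group D1, 50 in group D2 and 150 in group D3, and tissue was taken 72 hours after the last dose. Liver and forestomach were measured in 5 mice each of D0, D1 and D3 and in 4 of D2, and lung in 5 mice of D0, D1 and D3 and in 3 of D2. The 56 arrays came from 19 mice, and a mouse kept its number in the 3 tissues. A level below is the log2 ratio of a sample's Cy5 signal over the Cy3 signal of a common reference RNA pooled from mouse cell lines, so that 1 unit is a doubling, and levels of different probes were not compared with each other.

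The cornified envelope is the tough protein shell that keratinocytes, the cells of stratified squamous epithelium, lay down beneath the plasma membrane in their last steps of differentiation. The scaffold proteins envoplakin and periplakin are placed first, involucrin is joined to them, and loricrin and the small proline-rich proteins are then added, all held together by bonds that transglutaminases form between glutamine and lysine residues. In the mouse, epidermis and the forestomach, the non-glandular part of the stomach, have such an epithelium, whereas liver and the gas-exchanging part of the lung do not.

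Of the set, 5 genes lie in the epidermal differentiation complex on chromosome 3. Counted over protein-coding genes from Lor, Sprr1b was gene 13, Sprr3 gene 14, Sprr1a gene 15 and Ivl gene 17, whereas Tgm1 lies on chromosome 14, Tgm3 on chromosome 2, Evpl on chromosome 11 and Ppl on chromosome 16. Because the levels of these genes varied together over the forestomach arrays, their promoters were searched on both strands for TGANTCA, the letters of an AP-1 site, for TATAAA, and for GCGTG, the core to which the aryl hydrocarbon receptor binds. RefSeq windows of GRCm38.p6, from 250 bases before to 50 after a start site, were at hand for 7 of the 9 genes. TGANTCA was found in 4 of these 7 genes, against 7.81% of the 32851 windows of all genes, and TATAAA in 6 of 7, against 13.6%. GCGTG was found in 1 of 7, Tgm1, against 32.4%. The 250 bases before the start site are printed for 4 precursor genes that differ in these letters, on the minus strand and read 5′ to 3′, with TGANTCA and TATAAA in capitals. Lor spans chr3:92083143-92083392, Sprr1a chr3:92485882-92486131, Sprr3 chr3:92458721-92458970 and Ivl chr3:92573736-92573985.
Lor: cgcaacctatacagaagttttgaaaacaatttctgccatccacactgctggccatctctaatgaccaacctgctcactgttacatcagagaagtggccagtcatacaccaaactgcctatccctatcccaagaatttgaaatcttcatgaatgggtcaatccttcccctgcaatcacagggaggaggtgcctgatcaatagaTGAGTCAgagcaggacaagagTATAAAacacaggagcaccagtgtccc
Sprr1a: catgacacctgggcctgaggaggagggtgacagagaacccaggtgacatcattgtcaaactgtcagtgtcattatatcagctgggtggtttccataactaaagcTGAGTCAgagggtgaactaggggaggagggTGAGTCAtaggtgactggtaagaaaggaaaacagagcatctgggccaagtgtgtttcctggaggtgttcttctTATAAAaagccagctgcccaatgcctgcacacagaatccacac
Sprr3: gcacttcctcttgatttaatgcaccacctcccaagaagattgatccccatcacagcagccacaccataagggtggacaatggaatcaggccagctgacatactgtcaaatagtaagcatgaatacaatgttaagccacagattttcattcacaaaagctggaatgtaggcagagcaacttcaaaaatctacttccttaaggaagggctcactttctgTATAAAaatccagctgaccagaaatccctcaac
Ivl: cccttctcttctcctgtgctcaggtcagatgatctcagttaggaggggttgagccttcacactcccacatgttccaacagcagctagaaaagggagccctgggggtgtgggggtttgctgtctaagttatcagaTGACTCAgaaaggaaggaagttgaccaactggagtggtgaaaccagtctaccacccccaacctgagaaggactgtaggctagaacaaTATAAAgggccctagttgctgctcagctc
In Lor the TGANTCA match began 48 bases and TATAAA 27 bases before the start site, and in Ivl 116 and 29 bases. Sprr1a held TGANTCA at 146 and 116 bases and TATAAA at 43 bases. The Sprr3 window held TATAAA at 33 bases and no TGANTCA. These matches are letters in a window and were not tested as binding sites.

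The share of spots well above background was 47.6% to 55.2% in lung, 33.2% to 45.2% in liver and 18.1% to 50.2% in forestomach, where the 7 arrays of slide 1 were brighter than the others. No spot of the 11 probes was saturated. Markers of alveolar epithelium averaged 5.63 to 6.12 over the 18 lung arrays, and those of hepatocytes 6.26 to 6.81 over the 19 liver arrays. Suprabasal keratins averaged 2.98 to 5.71 over the forestomach arrays, and 10 of these 19 also carried markers of glandular stomach. The lung arrays of mice 17 and 19, both D3, stood apart from the other 16 by high keratinocyte and skeletal muscle markers, so that dose results in lung are given with and without them. On 16 of 18 lung, 17 of 19 liver and 17 of 19 forestomach arrays the column of the array on its slide was the dose step plus 1, so that array position and dose cannot be told apart.

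In mice given olive oil alone, each of the 9 genes was higher in forestomach than in lung and than in liver, Tgm3 by only 1 of its 2 probes. Loricrin, the main protein of the finished envelope, had Lor levels of 6.90, 7.86, 6.84, 6.55 and 7.42 in the forestomach of the 5 D0 mice. In lung the same mice had 1.01, 1.01, 0.85, 0.62 and 0.64, and in liver 0.79, 0.74, 0.78, 0.48 and 0.65. The lowest forestomach value lay far above every lung and liver value. The difference was 6.29 ± 0.73 (SE) log2 units from lung, or 78.1-fold, and 6.43 ± 0.73 from liver, or 85.9-fold. This SE is that of a fit that pooled the spread over tissues and doses, not that of the D0 mice alone. Within D0 the SD of Lor was 0.52 in forestomach, 0.19 in lung and 0.13 in liver. The D0 Cy5 signals of Lor were 18834.5 to 349318 in forestomach, 111.5 to 156 in lung and 91 to 115 in liver. The folds of the ratios are thus not those of the sample signal.

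Among the small proline-rich precursors, Sprr1a was measured in all 3 tissues. Its D0 level was 4.65 ± 0.32 (SD, n = 5) in forestomach, −3.03 ± 0.25 in lung and −1.73 ± 0.15 in liver. The forestomach level was thus 204-fold above lung and 83.0-fold above liver, and liver was 2.46-fold above lung. The D0 Cy5 signal of Sprr1a was 129 to 186 in lung and 116 to 191.5 in liver. That is not far above the 59 to 80 of Sprr1b, which was not well above background there. Lor and Tgm1 in lung and liver, and Evpl in liver, lay at 91 to 170. Background was not subtracted, so that folds resting on these low signals are uncertain in size. Sprr3 was 6.04 ± 0.71 in forestomach, with values of 6.28, 6.56, 4.84, 5.99 and 6.57, and was not well above background on any D0 array of lung or liver. The log2 ratios differed by 6.06 from lung and 5.99 from liver, so that Sprr3 was at least 66.9-fold and at least 63.5-fold higher in forestomach. Each bound of this kind is the lower of the fold of the ratios and the fold of the Cy5 signal over the lowest signal well above background, and is open to dye bias, since no dyes were swapped.

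Sprr1b had a wide spread in the forestomach of D0 mice, at 1.30, 2.96, 0.22, 0.01 and 3.55. Its signal was well above background in 3 of these 5 mice and in none of the lung or liver arrays at D0. The calculation used for Sprr3 gave 3.41-fold against lung and 3.22-fold against liver. These are not lower bounds, because not all forestomach arrays were well above background. Whether a Sprr probe also bound RNA of a related Sprr gene was not tested. Involucrin, an early precursor, had Ivl levels of 0.51, 1.52, 0.25, 0.27 and 2.22, with only mice 2 and 5 well above background. Ivl came out 1.76-fold above lung and 1.80-fold above liver, again not as lower bounds, since only 2 of 5 forestomach arrays measured it. By its other probe, A_55_P2053439, Ivl came out 1.39-fold above lung and 1.41-fold above liver, also with 2 of 5 forestomach arrays well above background. The D0 values of that probe overlapped between forestomach and either tissue.

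The enzymes that form the bonds differed likewise. Tgm1, the membrane-bound transglutaminase of keratinocytes, had D0 levels of 4.73, 5.50, 2.23, 2.33 and 5.62 in forestomach, against 0.16 to 1.08 in lung and 0.83 to 1.51 in liver. Even the low values of mice 3 and 4 lay above both other tissues, and the fold changes were 11.6 against lung and 8.24 against liver. Tgm3, a soluble transglutaminase that is cleaved to become active, had 2 probes that disagreed. The probe A_51_P495560, which forestomach made the brighter over the arrays of 2 tissues, had levels of 3.02, 3.99, 0.73, 2.87 and 4.84 in forestomach and was at least 7.68-fold higher than in lung and at least 7.66-fold higher than in liver, where it was not well above background on any D0 array. By contrast, the probe A_55_P2163493 was 0.27 lower in forestomach than in lung and 0.47 lower than in liver, below the 1.5-fold limit. It is the brighter Tgm3 probe in lung and liver, and values of Tgm3 within those tissues come from it unless the other is named.

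Envoplakin and periplakin, the scaffold proteins that link the envelope to the keratin network and the membrane, were well above background in lung and liver too. Evpl was 4.42 ± 0.34 in forestomach, 2.73 ± 0.18 in lung and −0.33 ± 0.17 in liver at D0. It was 3.22-fold higher in forestomach than in lung and 26.9-fold higher than in liver. Lung was 8.36-fold above liver, and the 5 lung values did not overlap the 5 liver values. Ppl was 3.39 ± 0.77, 0.94 ± 0.17 and −0.26 ± 0.23 in the same order, 5.46-fold higher in forestomach than in lung, 12.5-fold higher than in liver and 2.29-fold higher in lung than in liver. For both genes the order of the 3 tissues was forestomach, lung and liver, with no overlap between neighbours. The share of all probes without such overlap was not counted. With each array centred on its median, as described below, forestomach minus lung was −0.82 for Evpl and 0.00 for Ppl, so this order rests on the scaling.

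By limma over all probes at once, a gene was called where it differed by at least 1.5-fold with an adjusted p (Benjamini-Hochberg) no larger than 0.05. Lor, Sprr1a, Tgm1, Evpl and Ppl were well above background on every D0 array, and 5 of these 5 were called higher in forestomach than in lung, as were 18.3% of the 32699 probes tested. Against liver 5 of 5 were called higher, with 22% of probes. Ivl, Sprr1b, Sprr3 and Tgm3 were called against both tissues too, but these 4 passed the filter on low signal through their forestomach arrays, and their calls add nothing to the count. With its other probe Tgm3 was not called higher in either comparison, and Ivl was not called against lung. Between lung and liver 6 genes could be tested and 3 were called, Evpl and Ppl higher in lung and Sprr1a higher in liver, while 46% of probes were called in either direction. When each array was centred on its median in place of the loess curve, Evpl in forestomach minus lung became −0.82 and Ppl 0.00, and neither was called. Against liver, the calls of Tgm1 (1.49, adjusted p = 0.133) and Tgm3 (1.47, adjusted p = 0.0969) were lost, and for lung minus liver that of Sprr1a (0.07, adjusted p = 0.947), whereas Tgm3 became a call there (1.24, adjusted p = 0.00500). Under that scaling the median over all probes was itself shifted by −0.95, −0.21 and 0.59 in these 3 comparisons.

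**Figure D1:**
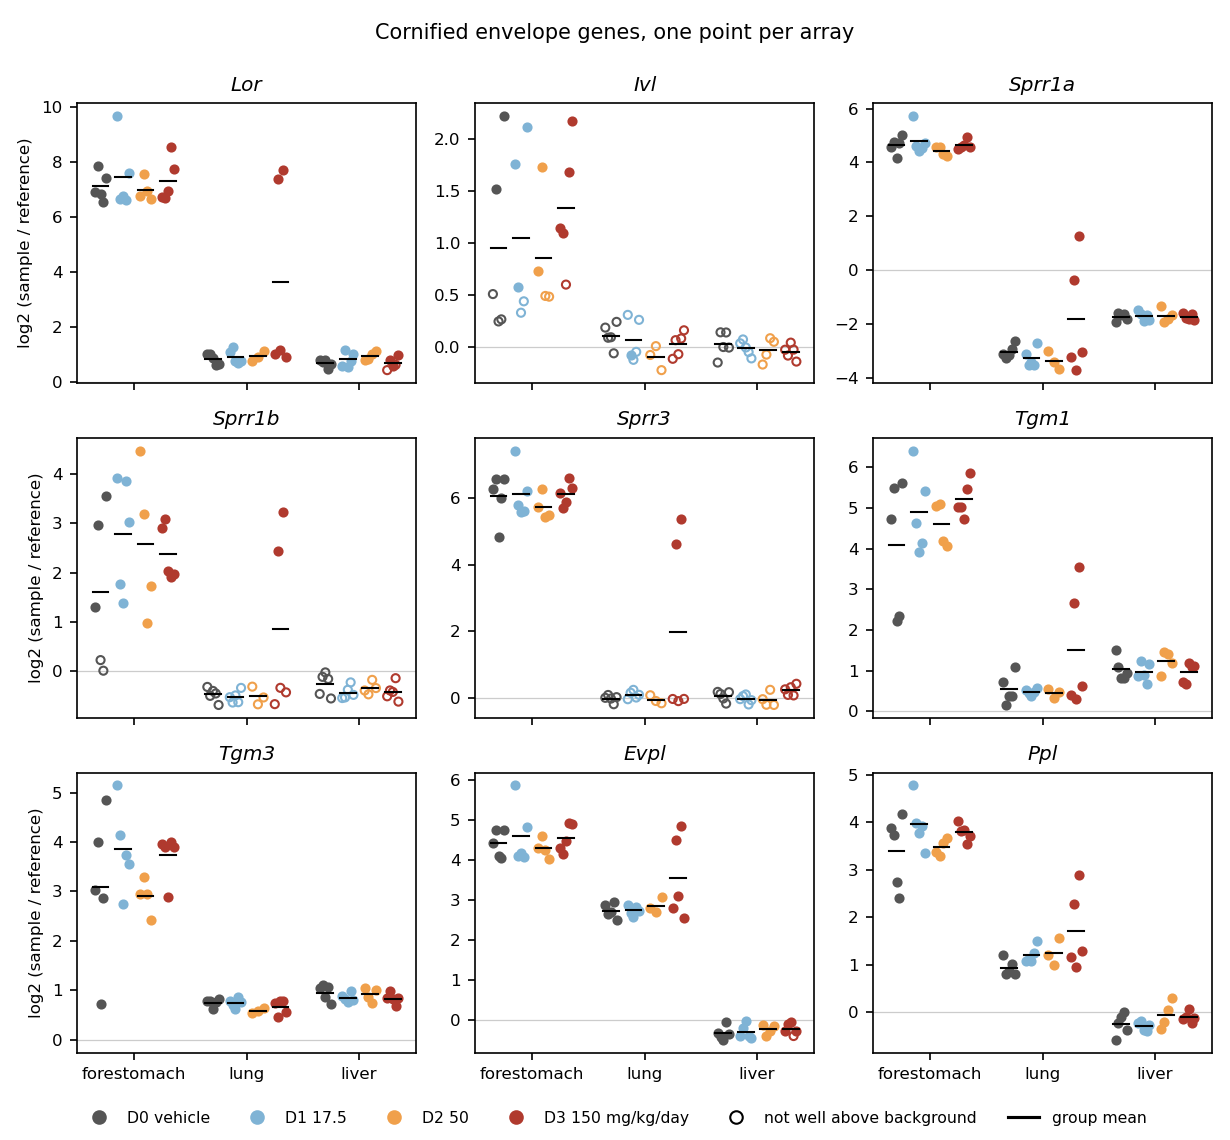
The log2 ratio of sample over reference (vertical axis) is drawn for each array of the 9 genes, by tissue and dose group (horizontal axis), with bars at group means and open circles where the spot was not well above background. In the Ivl and Tgm3 panels the forestomach points come from another probe than the lung and liver points, so that heights are compared only within those tissues. Lor lies between 6.55 and 9.67 on the forestomach arrays, and on 2 lung arrays at D3, at 7.37 and 7.71.

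The question of a response to chrysene was first asked in forestomach, the tissue that met the gavaged compound first. No gene of the set passed the limits at any dose. Lor had levels of 6.71, 6.67, 6.92, 8.55 and 7.75 at D3, of which 4 lay inside the D0 range of 6.55 to 7.86 and that of mouse 19 above it. The change was 0.20 ± 0.50 (adjusted p = 0.947). Tgm1 had the largest D3 change, with levels of 5.03, 5.02, 4.73, 5.47 and 5.87 against the D0 values of 2.23 to 5.62. Its difference of 1.14 ± 0.63 (adjusted p = 0.625) came with 2 low D0 mice, 3 and 4, and without mouse 3 it was 0.68.

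Sprr1b was 2.90, 3.08, 2.03, 1.92 and 1.97 at D3, inside the D0 range of 0.01 to 3.55, and differed by 0.77 ± 0.74 (adjusted p = 0.832). For Tgm3 the D3 levels were 3.95, 3.91, 2.89, 4.00 and 3.89, closer together than the D0 levels of 0.73 to 4.84, and the change was 0.64 ± 0.56 (adjusted p = 0.807). The D0 value of mouse 3 was the lowest of the 19 for this gene, and without that mouse the change was 0.05. The other Tgm3 probe, A_55_P2163493, had means of 0.49 at D0 and 0.51 at D3 in forestomach. Ppl changed by 0.40 ± 0.29, Ivl by 0.38 ± 0.44, Evpl by 0.13 ± 0.28, Sprr3 by 0.08 ± 0.35 and Sprr1a by −0.00 ± 0.21. Their adjusted p values were 0.756 or higher. Leaving out 1 D0 mouse moved several of these changes: without mouse 4 Sprr1b was 0.37 and Ppl 0.15, and without mouse 5 Sprr1b was 1.25, Ppl 0.59, Ivl 0.70 and Tgm3 1.08.

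In all, 0 of 9 genes were called at D3 by limma, against 0.00727% of the 27527 probes tested, and 0 of 9 had an unadjusted p of 0.05 or less, which 9.24% of probes had. The median change of the 9 was 0.38, and that of all probes tested was −0.00. At D1 the median was 0.34 and at D2 −0.13, and at either dose 0 genes were called (0% of probes) and 0 had an unadjusted p of 0.05 or less (4.17% and 7.53% of probes). The medians did not rise in step with the dose. A linear trend over the dose steps also gave 0 calls (0.04% of probes) and 0 genes with an unadjusted p of 0.05 or less (9.18% of probes), with fitted D0 to D3 changes from −0.11 for Sprr1a to 0.95 ± 0.58 for Tgm1. For no gene did all D3 arrays lie on one side of all D0 arrays, as they did for 1.39% of probes. The same held for the members tested in lung (2.61% of probes) and liver (0.739% of probes).

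The forestomach levels of several of the 9 genes differed between slides. On slide 1 the 95th percentile of the Cy5 signal was 2307 to 6270.5, against 489.5 to 1134 on slide 2 and 269.5 to 662 on slide 3, and each slide held D0 and D3 mice. Lor lay between 7.42 and 9.67 on the 7 arrays of slide 1 and between 6.55 and 6.95 on the other 12. Ivl (1.52 to 2.22 against 0.25 to 1.14), Tgm1 (5.09 to 6.41 against 2.23 to 5.06) and Evpl (4.59 to 5.86 against 4.02 to 4.48) did not overlap either, and the other 5 genes did. The share of all probes without overlap between slide 1 and the others was not counted, so whether the members stand out in this was not tested. With slide as a block, Tgm1 changed by 0.91 ± 0.33 at D3 (adjusted p = 0.221) and Ivl by 0.32 ± 0.14 (adjusted p = 0.323). Those were 2 of 9 genes at an unadjusted p of 0.05 or less, with 14.4% of probes, and 0 were called. Within slides the median D3 minus D0 difference of the 9 genes was −0.11 on slide 1, 0.04 on slide 2 and 0.46 on slide 3. On slide 3 all 9 were higher, but that comparison sets mouse 18 against mice 3 and 4.

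**Figure D2:**
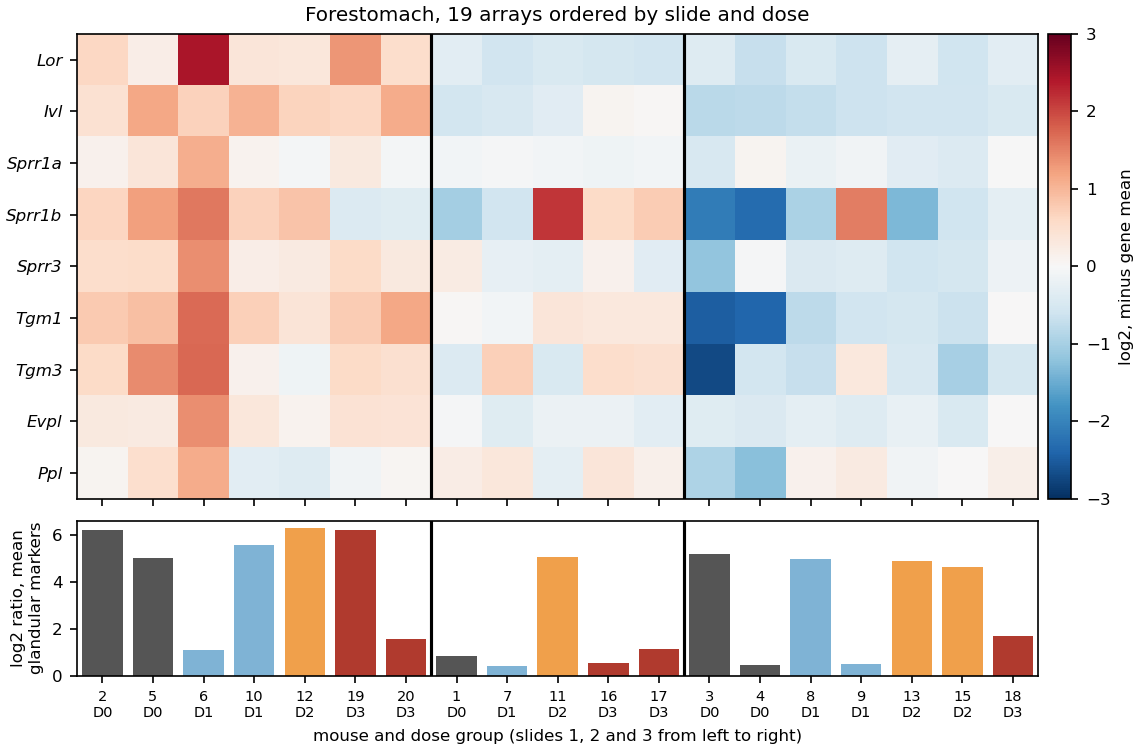
Colours give the log2 ratio of each of the 9 genes (rows) minus that gene's mean over the 19 forestomach arrays (columns, ordered by slide), and the bars below them give the mean log2 ratio of the glandular stomach markers. Lor is at 7.42 or higher on slide 1 and at 6.95 or lower on slides 2 and 3, and the bars stand at 4.65 to 6.31 on 10 arrays and at 0.39 to 1.70 on 9.

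The 9 genes varied together over the 19 forestomach arrays. All 36 pairs had a positive Pearson r, from 0.33 for Ivl with Ppl to 0.96 for Lor with Evpl, with a median of 0.67. These arrays share slides, and brightness differs between the slides, so the r are given as a description. Mouse 6 at D1 had the highest value of the 19 for 7 genes, with Lor at 9.67, Sprr1a at 5.73, Sprr3 at 7.42, Tgm1 at 6.41, Tgm3 at 5.14, Evpl at 5.86 and Ppl at 4.77. Markers of glandular stomach averaged 4.65 to 6.31 on 10 arrays, 3 of D0, 2 of D1, 4 of D2 and 1 of D3, and 0.39 to 1.70 on the other 9. The mean of the 9 genes was 2.90 to 4.91 on the former and 3.25 to 5.63 on the latter. In bulk tissue, a smaller share of a cell type and less RNA per cell cannot be told apart, and the part of glandular tissue in the dose comparison was not tested.

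Of the 14077 named genes tested in forestomach, those whose levels were most like the mean of the 9 were Cpa4 (r = 0.97), Otop2 (0.97), Klk6 (0.96), Klk5 (0.96), Adgrf4 (0.96), Fndc9 (0.96), Mt4 (0.95) and Lypd5 (0.95), over 19 arrays. Klk5 and Klk6 are kallikrein proteases. At the other end were Zfp358 (r = −0.94), Phc1 (−0.94), B4galt5 (−0.93), Bmi1 (−0.92), Gusb (−0.92), Nek8 (−0.92), Gucd1 (−0.91) and Txndc16 (−0.91). Phc1 and Bmi1 encode Polycomb proteins.

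In lung, the members were high on 2 arrays of the 18. Lor was 1.01, 7.37, 1.17, 7.71 and 0.89 in D3 mice 16, 17, 18, 19 and 20. The other 16 lung arrays of all doses lay between 0.62 and 1.27. Mouse 17 was thus 93.0-fold and mouse 19 118-fold above the D0 mean, and both values lay inside the range of 6.55 to 9.67 that the same probe had in forestomach. Their Cy5 signals were 186364 and 240611, against 111.5 to 156 at D0, so the folds of the ratios are not those of the sample signal. In liver, the same mice had Lor levels of 0.79 and 0.62, among those of the other mice.

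The other precursors stood apart on the same arrays. Sprr1a was −0.38 in mouse 17 and 1.26 in mouse 19, against −3.72 to −2.64 elsewhere in lung, which was 6.26-fold and 19.6-fold above the D0 mean and below the forestomach range of 4.15 to 5.73. Sprr3, not well above background on any other lung array, was 4.62 and 5.38. Sprr1b, likewise, was 2.44 and 3.22. Both Sprr1b values lay inside the forestomach range, and of the Sprr3 values that of mouse 19 did, whereas that of mouse 17 was just under its lower end of 4.84. Ivl was the exception among the precursors, at 0.07 and 0.08 against −0.22 to 0.31 on the other 16 arrays.

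The enzymes and scaffold genes were higher too. Tgm1 was 2.67 and 3.55 against 0.16 to 1.08, which was 4.36-fold and 8.06-fold above the D0 mean. The probe A_55_P2163493 of Tgm3 was 0.46 and 0.79 against 0.53 to 0.87, whereas the probe A_51_P495560 was 3.85 and 4.43 against −0.20 to 0.24. Evpl was 4.51 and 4.84 against 2.50 to 3.09, and Ppl 2.29 and 2.88 against 0.80 to 1.56. For each of the 11 probes mouse 19 was above mouse 17.

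With all 18 lung arrays, the D3 change was 2.80 ± 1.09 for Lor (adjusted p = 0.237), 0.82 ± 0.33 for Evpl (adjusted p = 0.245) and 0.77 ± 0.27 for Ppl (adjusted p = 0.202). Sprr1a changed by 1.21 ± 0.67 (adjusted p = 0.390), Tgm1 by 0.97 ± 0.47 (adjusted p = 0.321) and Tgm3 by −0.08 ± 0.07 (adjusted p = 0.599). Limma called 0 of the 6 genes tested, against 0.127% of the 31496 probes. At an unadjusted p of 0.05 or less, 3 of 6 were higher, namely Lor, Evpl and Ppl, against 6.05% of probes (16.2% in either direction). Ivl, Sprr1b and Sprr3 were not well above background on 3 lung arrays and were not tested.

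Without the arrays of mice 17 and 19, the lung changes at D3 were 0.20 ± 0.14 for Lor, 0.19 ± 0.13 for Ppl, 0.08 ± 0.13 for Evpl, −0.05 ± 0.07 for Tgm3, −0.10 ± 0.15 for Tgm1 and −0.30 ± 0.21 for Sprr1a. The adjusted p values were then 0.657 to 0.885, and the median of the 6 genes moved from 0.90 to 0.01. All probes tested had a median of −0.03 at D3 with all arrays. At D1 and D2 the medians of the 6 genes were 0.00 and 0.01, and 0 genes were called or had an unadjusted p of 0.05 or less (5.88% and 6.12% of probes). These tests shared their estimate of spread with D3, where mice 17 and 19 widened it. For Lor the standard error was 1.09 at D1 and 1.26 at D2, while the SD within D0, D1 and D2 was 0.19, 0.25 and 0.19. The tests could thus have missed a change in such genes. Without mice 17 and 19, 0 genes were called at D1 and D2 as well. The dose trend in lung gave 0 calls (0.168% of probes) and 3 genes with an unadjusted p of 0.05 or less (17.3% of probes), with fitted changes of 2.67 ± 1.06 for Lor and 0.73 ± 0.25 for Ppl. Without mice 17 and 19 the trend gave 0 calls (0% of probes) and 0 genes with an unadjusted p of 0.05 or less (11.6% of probes), with Lor at 0.18 ± 0.12 and Ppl at 0.22 ± 0.13.

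**Figure D3:**
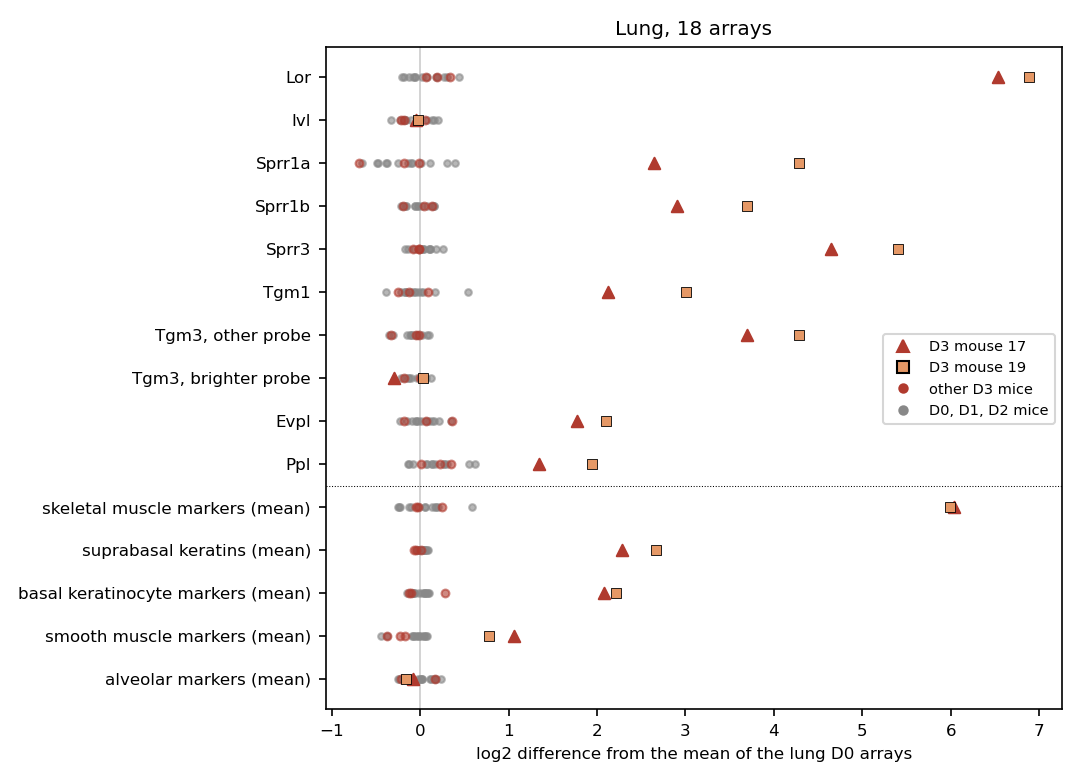
For the lung members and marker lists (rows), the log2 ratio minus the mean of the 5 D0 mice is drawn for each lung array, with mouse 17 as a triangle and mouse 19 as a square. Lor was 6.54 and 6.88 above the D0 mean in these mice, and the skeletal muscle markers 6.04 and 5.99, whereas the alveolar markers were at −0.08 and −0.16.

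The same 2 lung arrays were high for markers of keratinocytes and of skeletal muscle. Of the 20018 named genes, 8.07% were above the other 16 lung arrays in both mice. All 15 skeletal muscle markers were, with means of 5.44 and 5.39 against −0.85 to −0.02, and among them Acta1, the skeletal actin, was 7.07 and 7.39. In forestomach this list averaged −0.02 to 0.61. Of the 11 suprabasal keratins 8 were above the other lung arrays, led by Krt4 (6.84 and 7.80) and Krt13 (5.67 and 6.01), the keratin pair of internal stratified epithelia. Both lay inside their forestomach ranges of 4.27 to 8.90 and 4.24 to 6.71. Krt1, a keratin of epidermis and forestomach, was 1.19 and 1.23, far below its forestomach range of 7.32 to 9.69. Of 7 basal keratinocyte markers 5 were above the other arrays, and the list averaged 2.26 and 2.40 against 0.03 to 0.46.

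The other marker lists differed less. Smooth muscle markers averaged 2.03 and 1.75 against 0.52 to 1.05, with 6 of 9 above the other arrays. Cartilage markers averaged 0.05 and 0.15 against −0.39 to −0.16 with 2 of 7 above. Hepatocyte markers averaged 1.13 and 0.99 against 0.47 to 0.98, and airway epithelium markers 6.54 and 5.92 against 4.00 to 6.44. Pancreatic acinar markers averaged 0.08 and −0.07 against −0.03 to 0.09, and hair shaft markers 0.10 and −0.03 against −0.05 to 0.12. None of the 14 glandular stomach markers and none of the 9 alveolar markers was above the other arrays in both mice, and the alveolar list averaged 5.80 and 5.72 against 5.63 to 6.12. The part of these markers' cells in the lung values was not tested beyond leaving out the 2 arrays.

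Over the 18 lung arrays, the genes most like the mean of the 6 tested members were Crabp2, Cdsn, Krt14, Psapl1, Elovl4, Car12, Cst6 and Cysrt1, with Pearson r of 0.99 or higher. Cdsn encodes corneodesmosin, a protein of the junctions between cornified cells, and Krt14 a basal keratin. Those r rest on mice 17 and 19. Over the other 16 arrays the list was Atp10a, Rasl11b, Col1a1, Igsf3, Brd7, Vcan, Sfi1 and Lrfn4, with r from 0.80 to 0.83, and the 2 lists shared no gene.

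In liver the genes hardly varied. Over the 19 arrays, Lor lay between 0.43 and 1.15, Sprr1a between −1.95 and −1.34, Tgm1 between 0.66 and 1.51, Tgm3 between 0.68 and 1.10, Evpl between −0.49 and −0.01 and Ppl between −0.58 and 0.31. Ivl, Sprr1b and Sprr3 were not well above background on any liver array. The D3 changes of the 6 tested genes ran from −0.12 ± 0.08 for Tgm3 to 0.15 ± 0.12 for Ppl, with a median of −0.01. None was called by limma and 0 had an unadjusted p of 0.05 or less, as 0% and 4.8% of probes did. At D1 and D2 there were also 0 calls and 0 genes at that unadjusted p (3.61% and 3.79% of probes), and the trend gave 0 calls (0% of probes) and 0 genes at that unadjusted p (5.42% of probes).

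**Figure D4:**
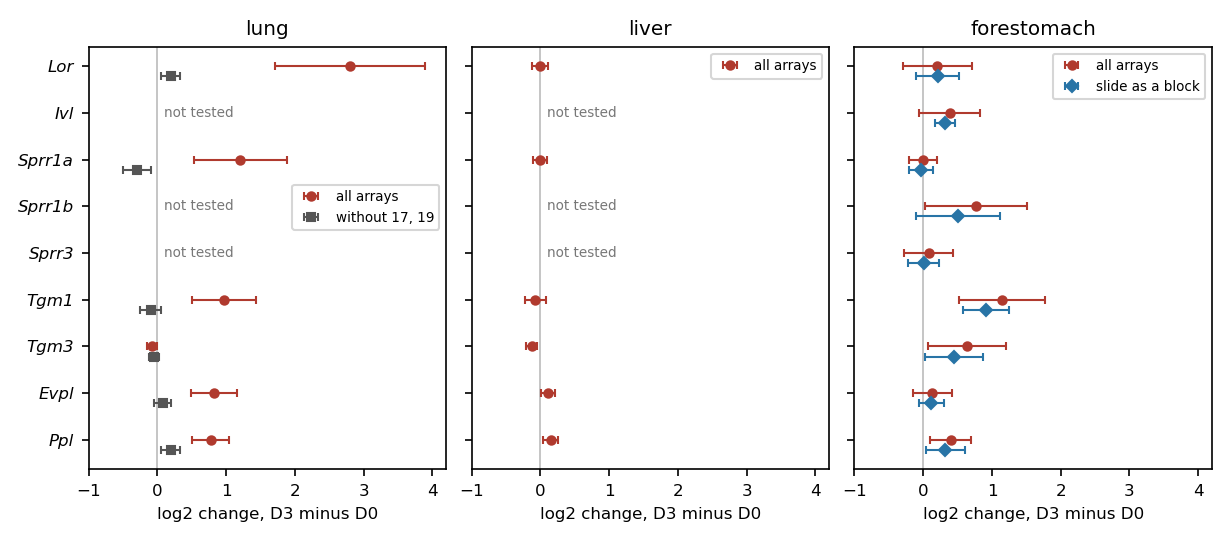
The D3 minus D0 change in log2 ratio is drawn for each gene (rows) with its standard error, in lung with all arrays and without mice 17 and 19, in liver, and in forestomach without and with slide as a block. In lung Lor is at 2.80 with all arrays and at 0.20 without mice 17 and 19, and in liver the changes lie between −0.12 and 0.15.

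Whether the D3 change differed between tissues was tested in 1 fit of the 56 arrays, in which each tissue was compared with its own D0 mice. The Lor change was larger in lung than in liver by 2.81 ± 1.03 (adjusted p = 0.763) and larger than in forestomach by 2.60 ± 1.03 (adjusted p = 0.231). Without mice 17 and 19 these differences were 0.20 ± 0.50 and −0.01 ± 0.50. No gene was called for lung against forestomach (0.703% of probes), lung against liver (0% of probes) or forestomach against liver (0.0772% of probes). At an unadjusted p of 0.05 or less there were 2 of 9 genes in the first comparison (12.9% of probes), Lor and Sprr3, 1 of 6 in the second (5.25%) and 0 of 9 in the third (9.91%). Sprr3 entered the first comparison through its forestomach arrays and was not well above background on any D0 array of lung, so no size is given for it. Without mice 17 and 19, 0 genes were called as well.

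A wider list of 91 genes of cornification, taken from general knowledge, covered other envelope precursors, crosslinking and the bound lipid layer, proteases and their inhibitors, desmosomes, and transcription factors of keratinocyte differentiation. It had 84 genes on the array, of which 82 were tested in forestomach, 39 in lung and 27 in liver, and limma called 0 at D3 in each tissue. In forestomach 68 of 82 were higher at D3 (82.9%, against 49.7% of all probes), with a median of 0.27. Other marker lists moved over the same arrays: from D0 to D3 the median over mice went from 2.44 to 3.36 for basal keratinocyte markers, from 3.79 to 4.46 for smooth muscle and from 5.04 to 1.55 for glandular stomach, and their part in the shift was not tested. Of the 82, 6 had an unadjusted p of 0.05 or less, a share of 7.32% that was below the 9.24% of all probes. They were Aloxe3, a lipoxygenase of the lipid layer (1.59 ± 0.61, adjusted p = 0.384), Grhl1 (1.20 ± 0.50), Trp63 (1.09 ± 0.46), Kprp (1.06 ± 0.48), Casp14, a caspase of cornifying cells (0.78 ± 0.36), and Cebpb (0.52 ± 0.22). The 12 transcription factors were all higher, with a median of 0.53. At D1 70 of 82 were higher (85.4%, against 50.2% of all probes), and at D2 30 (36.6%, against 47.1%).

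In lung 29 of 39 were higher at D3 (74.4%, against 42.5% of all probes), with a median of 0.68, and 21 had an unadjusted p of 0.05 or less (53.8%, against 16.2% of all probes). Dsc2, Lce1d, Ovol1 and Rptn were tested only because mice 17 and 19 brought them to 3 arrays well above background, and over the other 35 genes 18 had such a p (51.4%, against 16.1% of the probes that passed on the other 16 arrays), a filter chosen after seeing the data. Without mice 17 and 19, 23 of 39 were higher, the median was 0.03, and 2 had an unadjusted p of 0.05 or less, with 9.88% of all probes. With all arrays the largest change was that of Asprv1, a protease that processes filaggrin, at 2.96 ± 1.11 (adjusted p = 0.226), followed by Sbsn at 2.70 ± 0.88 (adjusted p = 0.174), and without those mice they were 0.30 ± 0.16 and 0.68 ± 0.32. On the arrays of these mice, 25 of 40 envelope precursors lay above the other 16 lung arrays, among them Lce3a at 8.47 and 8.89 against 0.09 or lower, as did 8 of 11 crosslinking and lipid genes, 6 of 10 proteases and inhibitors, 10 of 11 desmosome genes and 5 of 12 transcription factors, against the 8.07% of all named genes given above. In liver the list had a median of 0.01 at D3, and 0 of 27 had an unadjusted p of 0.05 or less, with 4.8% of all liver probes. At D0, 38 of 40 precursors, 11 of 11 crosslinking and lipid genes, 9 of 10 proteases and inhibitors, 10 of 11 desmosome genes and 8 of 12 transcription factors had a higher mean in forestomach than in lung, as did 53.1% of the 20018 named genes.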

How the data were processed

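Two-colour Agilent mouse arrays held sample RNA in Cy5 and Universal Mouse Reference RNA in Cy3, without dye swaps. The deposited scanner files give spot intensity and flags from Feature Extraction 10.7.3.1. The authors also deposited log2 ratios, made per the study's methods by LOWESS of median signals without background subtraction. These were used here, and correlated at 0.977 to 0.998 with ratios recomputed from the intensities. Control spots were left out, replicate spots averaged, and probes named through RefSeq accessions (26413 of 55681 probes).

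Dose groups were compared by limma 3.58.1 (R 4.3.3), two-sided, over all probes well above background on at least 3 arrays of the tissue (either tissue in comparisons of tissues). A gene was called where its Benjamini-Hochberg adjusted p was 0.05 or less and its fold change 1.5 or more. The study's methods name MAANOVA, with the same limits. Errors are standard errors of the fit or, where stated, SD. The test was also run on simulated data, the outcome of which is not reported here. The same mice gave the tissues, by their number in the labels, but comparisons of tissues fitted the arrays as independent. Mouse as a block was run only as an alternative. The deviations of the same mouse in 2 tissues correlated at −0.14 to 0.21. The number of arrays limits the precision.

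The members, the lists and the genes to name (the 9 members, up to 5 genes per list by the largest change or level, and the 8 genes most like the members) were chosen with earlier results of these data known.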

Additional observations from a re-analysis of the deposited data

Results flagged for a closer look

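Of 99 groups of 4 to 5 arrays examined, 3 held an array far from the others of its group, and about 4.95 would be expected by chance at this limit. Tgm3 in the lung of D0 mouse 3 was 0.62, and the nearest D0 value was 0.76. Sprr1a in the forestomach of D1 mouse 6 was 5.73, and the nearest was 4.74. Tgm3 in the forestomach of D3 mouse 18 was 2.89, and the nearest was 3.89. The lung arrays of mice 17 and 19 were not among them, because 2 high arrays in a group of 5 leave no single one apart.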

How the results depend on the processing

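The number of members called at each dose, in the trends and in the D3 changes between tissues stayed at 0 under all alternatives run, and 0 of the wider genes were called. Of the 5 genes well above background on every D0 array, 5 were called higher in forestomach at D0 under all alternatives run except median centring, which left 3 against lung and 4 against liver. With the mouse as a replicate block, 5 and 5 of them were called, 9 and 9 with the 4 genes that passed the filter through forestomach. Lung against liver gave 3 calls with the block and the D3 changes 0, so that it changed no count. Leaving out 1 array at a time, the median D3 change of the members was 0.47 to 1.13 in lung, −0.03 to 0.03 in liver and 0.14 to 0.59 in forestomach. Without both lung arrays of mice 17 and 19 it was 0.0115 in lung, with Sprr1a at −0.299 and Tgm1 at −0.0965. Median centring in place of loess shifted all probes by −0.95 for forestomach minus lung, −0.21 for forestomach minus liver, 0.59 for lung minus liver, and 0.14 and 0.18 for the D3 change in lung and forestomach. Under it Tgm3 changed by 0.136 at D3 in lung, and Sprr1a by 0.515 in forestomach. At D0 it gave Evpl at −0.820 for forestomach minus lung, and Sprr1a at 0.0675 and Tgm3 at 1.24 (called) for lung minus liver, where normexp gave Tgm3 at 0.00457. Sprr1a in forestomach at D3 was 0.0240 with loess recomputed here and 0.0314 with normexp, and Sprr3 was −0.0898 with array weights. Leaving out 1 forestomach array gave −0.10 to 0.39 for Lor, −0.13 to 0.0881 for Sprr1a and −0.22 to 0.21 for Sprr3. The cause of these reversals was not tested. Over the whole array, the 40 probes called in lung at D3 became 14 with loess recomputed here, 15 with normexp, 0 with median centring, 20 with slide as a block, 15 with array weights and 0 without mice 17 and 19, and 0 to 143 without 1 array. The 2 called in forestomach became 0 to 137, and 0 to 13 without 1 array. Slide as a fixed block was not run for the D0 tissue comparisons, because no slide held 2 tissues, and slide as a random block was chosen after seeing the data. Of the 7 dim arrays of slide 3 in forestomach, 0 measured Ivl and 5 Sprr1b above background.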
